A study of Glycine max with 34 samples.

Results

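Genes named for sugar transport or sucrose binding were followed from seed coat to embryo in early maturation seeds of soybean (Glycine max). The 7 genes are SWEET13, SWEET17, SWEET24, SWEET31, SWEET42, SUT1 and SBP2. They were chosen by their symbols in the array's gene table, as SWEET sugar exporters, the sucrose carrier SUT1 and the sucrose binding protein SBP2. They are 7 of the 6029 genes that the table ties to soybean probe sets of a single gene, and 11 of the 37593 soybean probe sets read them. The Affymetrix Soybean Genome Array gave 1 signal per probe set on 34 arrays, 2 biological replicates for each of 17 groups. All groups came from cultivar Asgrow A3237 grown at 22 °C under 16 h of light and 8 h of dark, from seeds 6.0 to 7.0 mm long. Seeds for 16 of the groups were fixed with ethanol and acetic acid, and laser microdissection of paraffin sections 8 microns thick separated the compartments. Those are the palisade layer, hourglass layer, parenchyma, hilum and aleurone of the seed coat, the abaxial and adaxial epidermis, the abaxial and adaxial parenchyma and the vascular bundle of the cotyledon, and the root and shoot meristems, plumule, vascular bundle, epidermis and parenchyma of the embryonic axis. The aleurone is counted with the seed coat because it was labelled and collected with it, which does not make it maternal tissue. Whole seeds, the 17th group, were ground and extracted with another RNA reagent. In every group 2 ng of RNA was amplified before hybridization.

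No living cell connection joins the seed coat and the embryo, so sucrose delivered by the phloem of the coat leaves maternal cells, crosses the space between the generations and is taken up by the embryo. SWEET proteins are membrane uniporters that let sugars pass down their gradient and are known in seeds for release from the coat. SUT1 belongs to the proton-coupled sucrose carriers that take sucrose into cells against its gradient, and SBP2 encodes a membrane-associated sucrose binding protein, of a kind first found in developing soybean cotyledons.

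The background of an array was the 95th percentile of its probe sets for Phytophthora sojae and Heterodera glycines, and ran from 104.3 to 263.9. Signals are comparable between compartments for 1 probe set, not between genes. A difference is the log2 difference of signal plus 16 between groups, given ± its standard error from limma. A call needed a size of at least 1 and an adjusted p under 0.05, by the Benjamini-Hochberg method over 28441 tested probe sets. A fold is that difference without the logarithm. Where no more than an equal number of arrays in the dimmer group lay above background as below it, signals below were raised to background and the fold is written "at least". The labels do not tell how many seeds a replicate holds or whether compartments share seeds, so no p-value reaches beyond these samples. For seed coat over embryo and cotyledon over axis, standard errors and p-values measure the spread between compartment means of a region. For the other comparisons they measure the spread between the 2 arrays of a group, shared over the 17 groups. Each gene was read by its brightest probe set. Among markers of the labelled tissues, the hourglass peroxidase Ep was highest in the hourglass layer, the MADS-box gene AGL1L in the 5 coat layers, and all 4 cotyledon storage genes in cotyledon parenchyma. The coat marker ANR1 did not mark every coat layer. It was highest in the palisade layer with 45825 and 43602. It lay below background in the aleurone, with 55.8 and 91.2, and in the seed coat parenchyma, with 125.7 and 91.3. The cell wall genes PRP1, PRP2 and PRP3, listed for the hilum and coat walls, were highest in the hourglass layer and not in the hilum, and PRP1 was next highest in the axis epidermis. The 7 sieve element occlusion genes, which mark phloem, summed to 16071 and 17486 in the seed coat parenchyma, against 1248 to 1681 in the cotyledon vascular bundle and 1011 to 1577 in the axis vascular bundle. Within the embryo, the vascular bundles held the highest sums, with no other embryo array above 945. Few of these genes rose above background there: 0 and 2 of the 7 in the axis vascular bundle and 2 and 4 in that of the cotyledon. The sum of axis vascular bundle replicate 1 thus holds no signal above background. The meristem markers listed, SBH1 and H15, and the coat marker ANR2 were not among the named genes tested.

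All 7 genes had a probe set that passed the filter on dim signals. Of these, 6 differed among the 16 compartments by the limma F test, which 63.4% of all tested probe sets also passed. The adjusted p was 9.79e-15 for SUT1, 5.83e-14 for SWEET24, 1.19e-13 for SBP2, 4.69e-11 for SWEET13, 1.42e-09 for SWEET17 and 0.000884 for SWEET42. SWEET31 did not pass (its adjusted p was just above 0.05). The compartments in which the genes were highest differed: SWEET17 stood out in the seed coat parenchyma, SWEET24 in the inner seed coat, SWEET13 in the hourglass layer, SUT1 in the abaxial epidermis of the cotyledon and the epidermis of the axis, and SBP2 throughout the embryo.

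**Figure D1:**
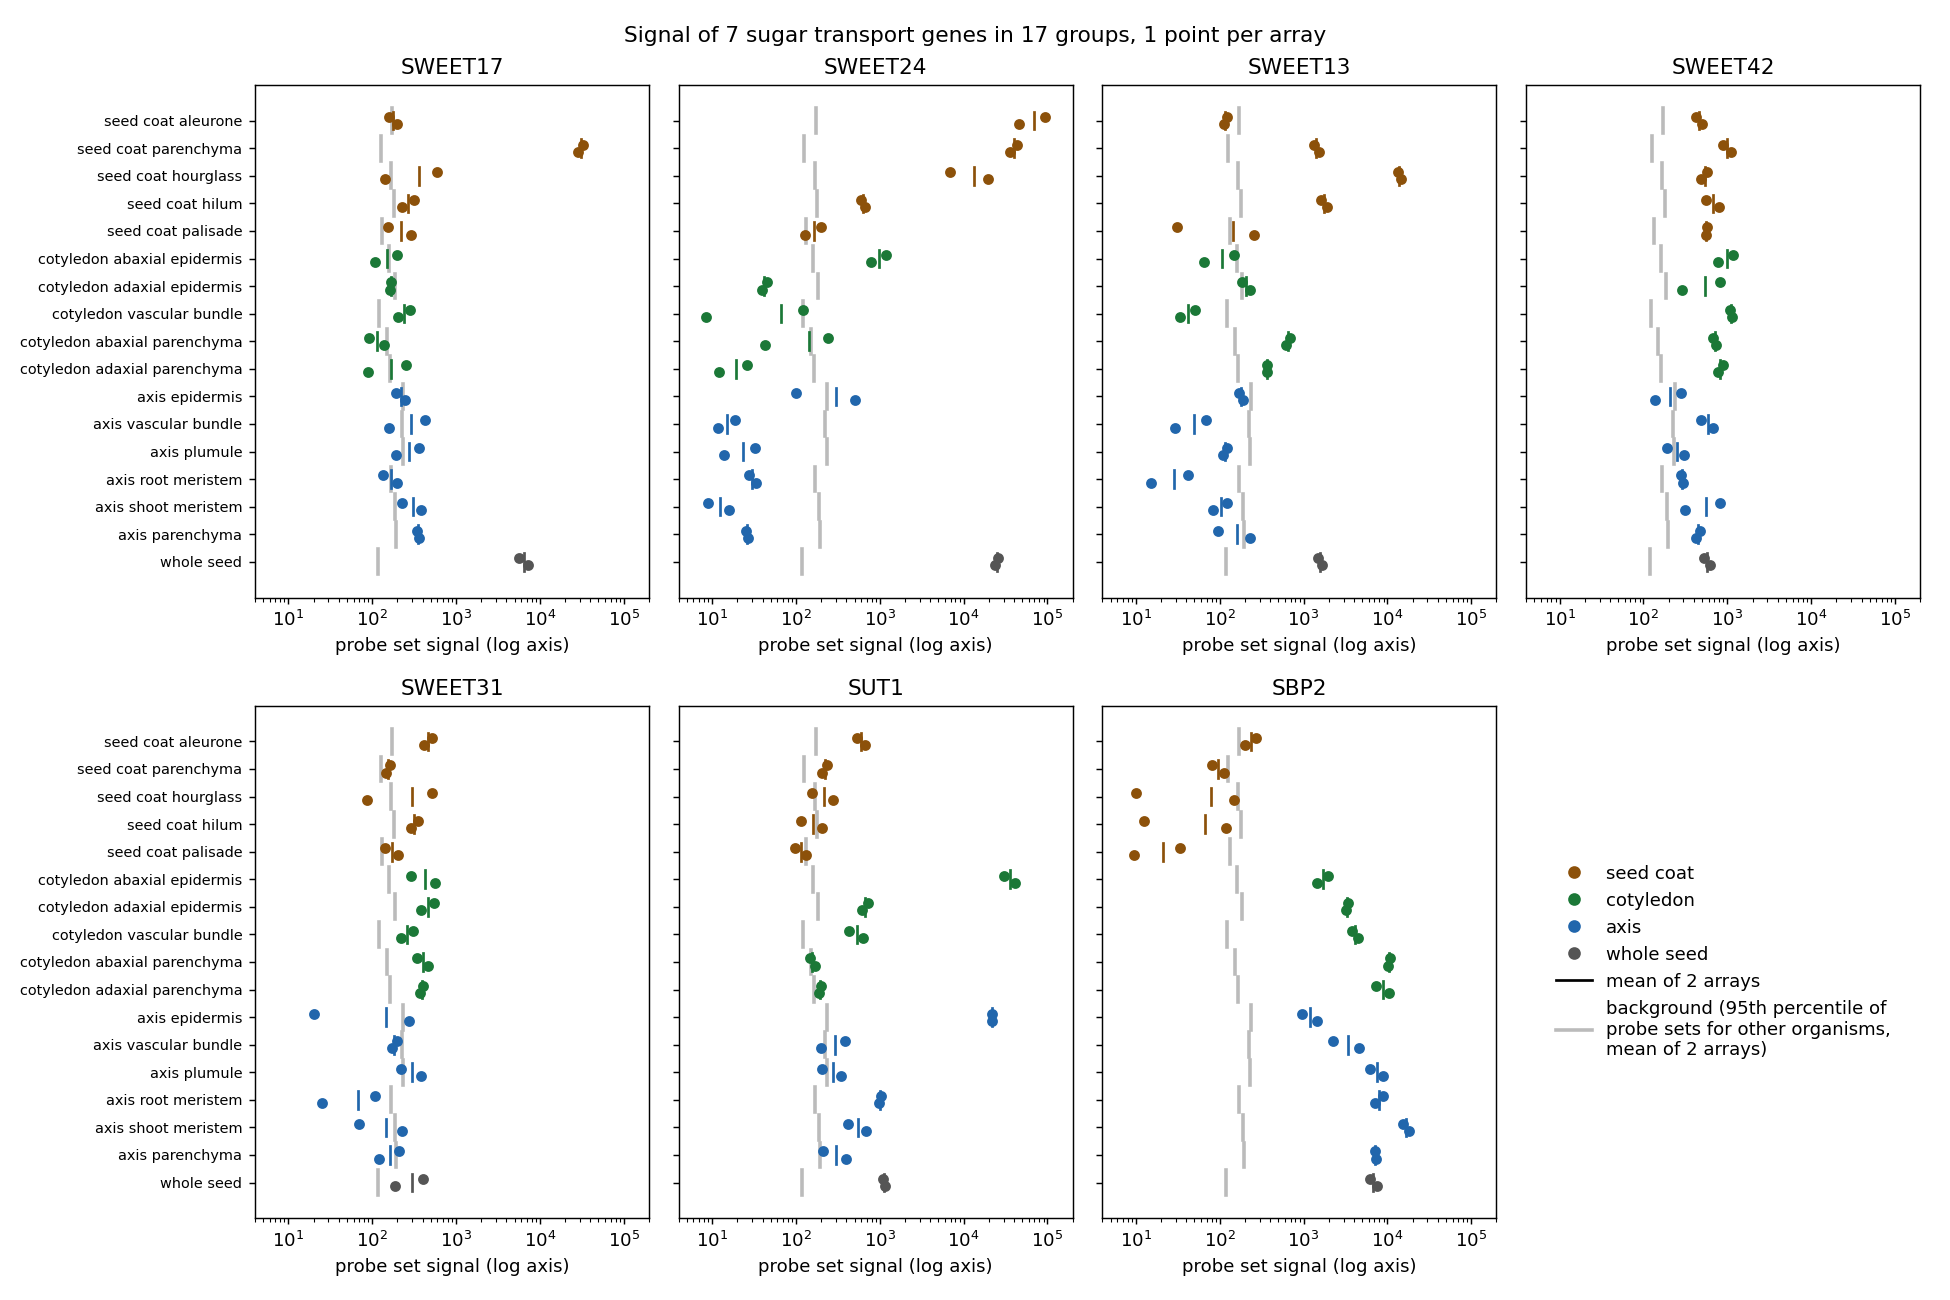
Signal of each of the 7 genes (x axis, log scale) in 17 groups (y axis), 1 point per array with a line at the mean of 2 arrays and a gray line at the mean background of that group. SWEET17 stood at 28226 and 33006 in the seed coat parenchyma, with the other 30 compartment arrays at 88.6 to 591, and SBP2 stood at 9.4 to 269 in the seed coat, against 962 to 18062 in the embryo.

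SWEET17 (NCBI gene 100810962) was highest in the seed coat parenchyma. Its brighter probe set gave 33006 and 28226 in the seed coat parenchyma, a mean of 30616 ± 3380 (SD, n = 2). On the other 30 compartment arrays it ran from 88.6 to 591 with a median of 198.7, and 19 of the 30 lay above background. Among those 15 compartments each mean overlapped the next in rank, so no order could be read below the seed coat parenchyma. A bulk signal cannot tell fewer expressing cells from less RNA per cell, here or below. Seed coat parenchyma exceeded the mean of the other 4 coat layers by 6.94 ± 0.44 (adjusted p 2.27e-11), a 123-fold difference with no overlap of arrays. The second SWEET17 probe set gave 5100 and 6839 in the seed coat parenchyma, against 6.1 to 195 on the other 30 arrays, 0 of which rose above background. The same comparison on that probe set came to 6.46 (adjusted p 7.41e-09), at least 33.5-fold. Over the 17 group means the 2 probe sets correlated at r = 0.908. Sieve element genes moved with SWEET17: 6 of the 7 were highest in the seed coat parenchyma, and their sum there, 16071 and 17486, stood against 239.8 to 1681 (median 673) on the other 30 arrays. Their part in the seed coat parenchyma signal of SWEET17, and of SWEET24 below, was not tested. Whole seeds gave 5613 and 7307.

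SWEET24 (NCBI gene 100800347) was high from the hourglass layer inwards. The aleurone, the innermost layer collected with the coat, had 92830 and 45998. The seed coat parenchyma had 43274 and 35732, and the hourglass layer 6795 and 19509. The cotyledon abaxial epidermis, which faces the seed coat, followed with 1187 and 796. Markers listed for the coat were also seen in that epidermis. PRP1, PRP2 and PRP3 summed to 15316 and 1995 there, against 36029.7 and 19253 in the aleurone. PRP1 alone had 6395 and 220 in that epidermis, against 1241 and 621 in the aleurone. The coat genes AGL1L and ANR1 summed to 311 and 98.3, against 4770 and 5297 in the aleurone and 18842 and 22039 in the seed coat parenchyma. In that epidermis 1 of these 2 genes rose above background in replicate 1 and 0 in replicate 2. The hourglass marker Ep had 579 and 226 there. Replicate 1 was the higher for SWEET24, for Ep and for both sums, and their part in the SWEET24 signal of this epidermis was not tested. The hilum came next at 589 and 675. These 5 compartments did not overlap in neighbouring ranks, although the aleurone and seed coat parenchyma, next to each other in rank, did not differ by the test. The palisade layer had 200.3 and 128. In the 10 embryo compartments other than the abaxial epidermis of the cotyledon, the 20 arrays ran from 8.4 to 505 with a median of 27.1, and 2 exceeded background. SWEET24 thus lay above background on 9 of 10 coat arrays and 4 of 22 embryo arrays. Whole seeds gave 25984 and 23946. The hourglass arrays that differed in SWEET24 also differed in the summed signal of the 4 cotyledon storage genes, 2092 in replicate 1 and 10241 in replicate 2, and the part of that in SWEET24 was not tested.

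SWEET13 (NCBI gene 100800304) was highest in the hourglass layer at 13441 and 14395. The hilum had 1596 and 1901, and the seed coat parenchyma 1326 and 1517. In the embryo it was readable in cotyledon parenchyma, at 695 and 612 on the abaxial side and 364 and 372 on the adaxial side. None of these 5 groups overlapped its neighbour in rank, while the remaining 22 compartment arrays ran from 15.1 to 256 (median 110.4) with 5 above background. The hourglass marker Ep had the same top group but not the same order, with 38706 and 40376 in the hourglass layer, 22405 and 26007 in the seed coat parenchyma and 138 and 418 in the hilum, and the part of hourglass material in the seed coat parenchyma signal was not tested. Whole seeds gave 1470 and 1683 for SWEET13.

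SWEET42 and SWEET31 showed no such concentration. SWEET42 (NCBI gene 100790469) ran from 136 to 1176. Its highest compartments were the cotyledon vascular bundle with 1082 and 1142, the seed coat parenchyma with 892 and 1118 and the cotyledon abaxial epidermis with 1176 and 782, and these 3 overlapped. Its lowest was the axis epidermis with 283 and 136. SWEET31 (NCBI gene 100777281) ran from 20.3 to 567, highest in the cotyledon adaxial epidermis with 547 and 383 and the aleurone with 517 and 410. It was lowest in the axis root meristem, at 109 and 25.4, where neither array exceeded background. The other SWEET31 probe set exceeded background on 1 of 34 arrays and was not tested. On the brighter probe set the F test did not pass under 31 of 41 alternatives, with an adjusted p as high as 0.157. The F test of SWEET31 passed with a pseudocount of 64 (adjusted p 0.0327), quantile normalization (0.0404), scaling to the 75th percentile (0.0497) and without the arrays with bright hybridization controls (0.0390). It also passed when either axis epidermis array or either hourglass array was left out, or axis root meristem replicate 1, or axis shoot meristem replicate 2. Its adjusted p was then 0.0028 to 0.0400, the lowest being without axis epidermis replicate 2.

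SUT1 (NCBI gene 547679) was highest in 2 of the 3 epidermis groups of the embryo. Its brightest probe set gave 30441 and 40790 in the cotyledon abaxial epidermis and 22008 and 21544 in the axis epidermis. The other 28 compartment arrays ran from 98.8 to 1036 with a median of 256.0, and 23 of them lay above background. The axis root meristem led these at 1036 and 973, ahead of the cotyledon adaxial epidermis at 715 and 613, the aleurone at 537 and 660, the axis shoot meristem at 421 and 678 and the cotyledon vascular bundle at 433 and 633. The root meristem did not overlap the compartments next to it, whereas the 4 after it overlapped one another in rank. The seed coat parenchyma had 232 and 207. Whole seeds gave 1090 and 1139, far under both epidermis groups.

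The SUT1 probe sets did not all follow that pattern. The second had 13519 and 7880 in the cotyledon abaxial epidermis and 3003 and 3409 in the axis epidermis, and its group means correlated with the brightest at r = 0.980. The third had 1198 and 637 in the cotyledon abaxial epidermis but 444 and 228 in the axis epidermis (r = 0.444 with the brightest). There the axis epidermis overlapped other axis compartments, with 362 and 294 in the axis parenchyma. The brightest and the third SUT1 probe sets and the SBP2 probe set carry the suffix _s_at, which marks sets that can also bind close copies of their gene.

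**Figure D2:**
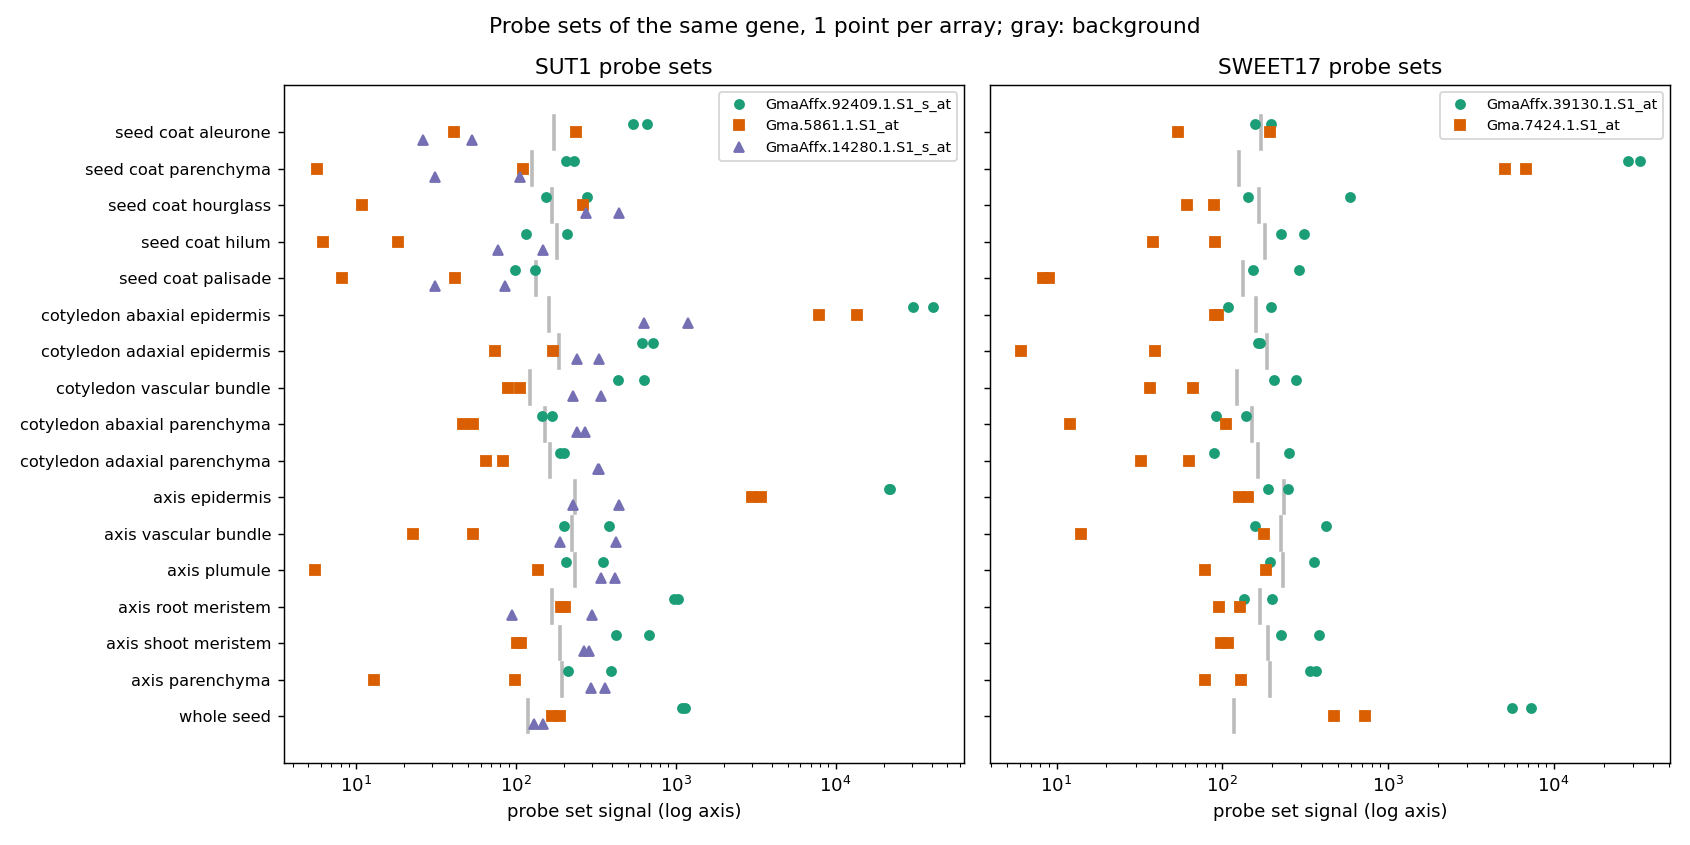
Signal (x axis, log scale) of the 3 probe sets of SUT1 and the 2 of SWEET17 in 17 groups (y axis), 1 point per array, with the mean background in gray. Circles are the brightest probe set, squares the second and triangles the third. The SUT1 probe sets shared the cotyledon abaxial epidermis as their highest group, while the axis epidermis stood out on 2 of the 3, and both SWEET17 probe sets were highest in the seed coat parenchyma.

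SBP2 (NCBI gene 548002) was low in the seed coat and high throughout the embryo. In the aleurone it had 269 and 202, both above background. The other 8 coat arrays ran from 9.4 to 148, and 0 of them exceeded background. The aleurone also held the embryo marker PM29, a seed maturation protein, with 1003 and 855. The other embryo marker, the lipoxygenase LOX1.1, had 242 and 15.6 there, of which only replicate 1 lay above background. Their sum was 1245 and 870 in the aleurone, against 16.5 to 152 in the other coat layers. The part of these markers in the aleurone signal of SBP2 was not tested. On all 22 embryo arrays SBP2 lay above background, from 962 to 18062 with a median of 6608. The axis shoot meristem was highest with 15260 and 18062, without overlap with the next group, the cotyledon abaxial parenchyma with 10748 and 10108. From there to the axis plumule, 5th in rank with 6188 and 8793, and the axis parenchyma, with 7190.1 and 7239, each group overlapped the next. The 3 epidermis groups were lower than the rest of the embryo in median. Their 6 arrays ran from 962 to 3391 (median 1719), against 2257 to 18062 (median 7240) on the other 16 embryo arrays. The epidermis with the lowest SBP2 was that of the axis, with 962 and 1434, followed by the cotyledon abaxial epidermis with 1984 and 1453. Whole seeds gave 6121 and 7420.

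The first comparison asked whether a gene separated the seed coat from the embryo, over compartment means. It called 2 of the 7 genes, against 15.1% of all tested probe sets. Of these, 1 gene was higher in the seed coat (7.52% of probe sets) and 1 was lower (7.58%). SWEET24 was higher in the seed coat by 6.16 ± 1.18 (adjusted p 0.00174), at least 21.0-fold, although some arrays of the regions overlapped. SBP2 was lower in the seed coat, at -5.93 ± 0.57 (adjusted p 3.91e-06), at least 28.2-fold, and no coat array reached the embryo range. SWEET13 was just short, at 2.62 ± 0.91 (adjusted p 0.0502). Its call changed with 12 single arrays, among them palisade replicate 1, whose removal gave 2.88 with an adjusted p of 0.0228. Over its 57 alternatives the adjusted p ran from 0.00455 to 0.171. The lowest came from the fit with a replicate block, which used single arrays instead of compartment means. Of those 57 alternatives, 38 left SWEET13 uncalled and 19 called it. Among the 19 were fits without the aleurone (3.31, adjusted p 0.0159) and without the palisade compartment (3.36, adjusted p 0.0138). The fit without the cotyledon abaxial parenchyma (2.85, adjusted p 0.0398) also called SWEET13. SWEET17 gave 1.56 ± 0.85 (adjusted p 0.213) and SUT1 gave -1.83 ± 1.13 (adjusted p 0.274). On the third probe set SUT1 was called lower in the seed coat, at -1.66 (adjusted p 0.00671).

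Within the embryo, limma called 0 of the 7 genes between the cotyledon and the axis, where 1.5% of probe sets were called, and 2 genes had an unadjusted p under 0.05. These were SWEET31, at 1.39 ± 0.36 (adjusted p 0.0572), and SWEET42, at 1.13 ± 0.31 (adjusted p 0.0712), both higher in the cotyledon. SWEET42 had 286 to 1176 on the 10 cotyledon arrays and 136 to 811 on the 12 axis arrays. Leaving out axis shoot meristem replicate 1 or cotyledon adaxial epidermis replicate 2 called SWEET42, with adjusted p 0.0450 and 0.0281. SWEET31 was called without axis plumule replicate 2, axis parenchyma replicate 1, axis shoot meristem replicate 2 or cotyledon adaxial epidermis replicate 2, with adjusted p 0.0380 to 0.0497.

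Along the inner path, 3 comparisons followed. The first set the seed coat parenchyma against the mean of palisade, hourglass, hilum and aleurone, and the later ones set neighbouring layers against each other. Seed coat parenchyma over the other coat layers called 2 of 7 genes (13.8% of probe sets), both higher (7.95%). Beside SWEET17, SWEET24 was higher there by 3.69 ± 0.56 (adjusted p 1.88e-05), 12.9-fold, although both aleurone arrays lay above those of the parenchyma. SWEET13 gave 0.88 ± 0.45 (adjusted p 0.218), and 1.20 (adjusted p 0.0286) without palisade replicate 2. Aleurone over seed coat parenchyma called 3 genes (18.3% of probe sets), 1 higher (8.39%) and 2 lower (9.87%). SWEET17 was lower in the aleurone, at -7.31 ± 0.56 (adjusted p 3.72e-10), at least 136-fold, and so was SWEET13, at -3.44 ± 0.57 (adjusted p 6.04e-05), at least 7.86-fold. SUT1 was higher in the aleurone by 1.38 ± 0.40 (adjusted p 0.0147), 2.60-fold. That call was lost without aleurone replicate 2 (1.24, adjusted p 0.0953), without seed coat parenchyma replicate 1 (1.46, adjusted p 0.0565) or replicate 2 (adjusted p 0.0970). The second SUT1 probe set gave 1.20 (adjusted p 0.438) and the third gave -0.49. SWEET24 gave 0.73 ± 0.71 and was not called.

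Across the boundary, the cotyledon abaxial epidermis was set against the aleurone, the layer collected with the coat that it faces. The comparison called 3 of 7 genes (18.8% of probe sets), 2 higher (9.85%) and 1 lower (8.98%). SUT1 was higher in the cotyledon abaxial epidermis by 5.85 ± 0.40 (adjusted p 2.61e-11), 57.6-fold. SBP2 was higher by 2.78 ± 0.59 (adjusted p 0.000936), 6.88-fold. SWEET24 was lower, at -6.05 ± 0.71 (adjusted p 2.83e-07), 66.1-fold. All 3 differences were without overlap. For SUT1, the second and the third probe sets gave at least 54.5-fold and at least 4.88-fold.

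**Figure D3:**
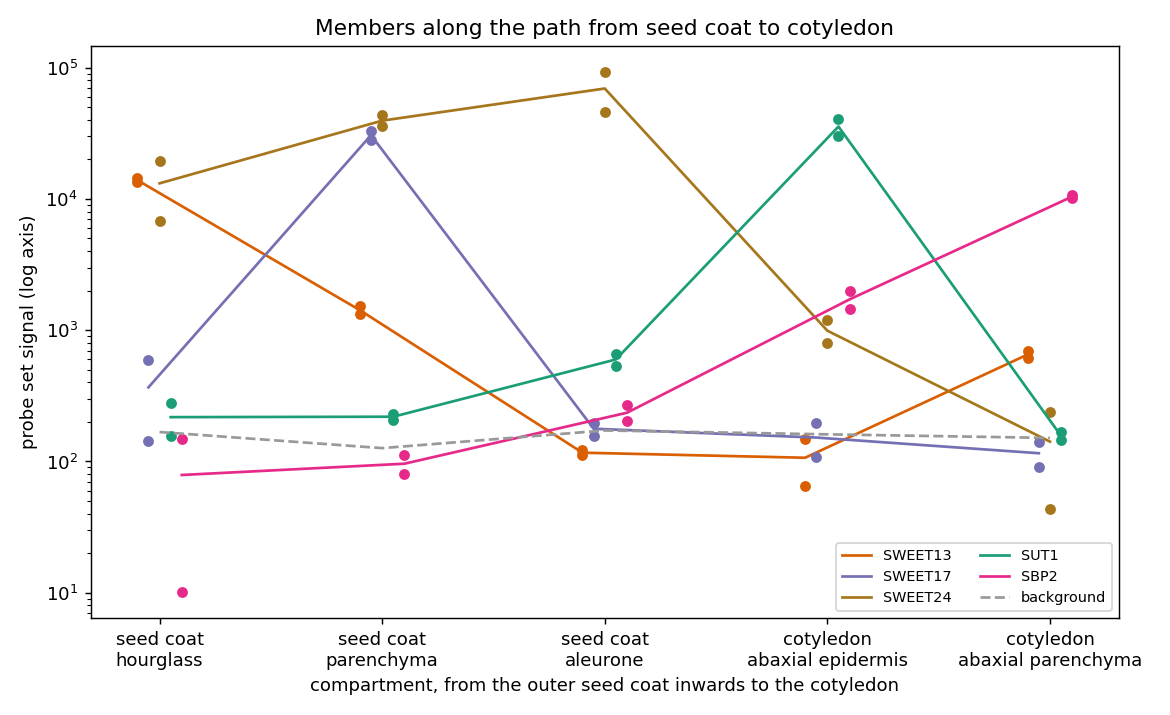
Signal (y axis, log scale) of 5 of the genes in 5 compartments from the outer seed coat inwards (x axis), points for arrays, lines through means and a dashed line at the mean background. SWEET24 had 45998 and 92830 in the aleurone and SUT1 had 30441 and 40790 in the cotyledon abaxial epidermis, while heights of different genes cannot be set against each other.

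The outer and inner faces of the cotyledon differed for 2 of 7 genes, against 3.52% of probe sets, and both were higher in the abaxial than in the adaxial epidermis (1.88%). SUT1 was 52.0-fold higher (5.70 ± 0.40, adjusted p 1.51e-09). SWEET24 was at least 4.93-fold higher (4.09 ± 0.71, adjusted p 0.000657), with 1187 and 796 in the abaxial and 44.7 and 39.7 in the adaxial epidermis, the last 2 below background. The PRP sum moved with it, at 15316 and 1995 in the abaxial against 776 and 364 in the adaxial epidermis, whereas the sum of AGL1L and ANR1 was 311 and 98.3 in the abaxial against 424 and 181 in the adaxial epidermis. Of AGL1L and ANR1, 1 rose above background in replicate 1 and 0 in replicate 2 of either face. The part of the PRP, AGL1L and ANR1 genes in the SWEET24 difference was not tested. On the third SUT1 probe set the difference was 1.57 (adjusted p 0.152). SWEET13, SWEET17, SWEET31, SWEET42 and SBP2 were not called.

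Epidermis over parenchyma in the cotyledon called 4 genes (11.9% of probe sets), 2 higher (5.94%) and 2 lower (5.98%). SUT1 was higher in the epidermis by 4.68 ± 0.28 (adjusted p 1.66e-12), 25.7-fold, and on the third probe set it gave 0.76 (adjusted p 0.240). SWEET24 was called higher (1.88 ± 0.50, adjusted p 0.00907), but 2 of its 4 epidermis arrays and 3 of its 4 parenchyma arrays lay below background, so no fold is given, and without cotyledon abaxial parenchyma replicate 2 the call was lost (1.35, adjusted p 0.0935). SBP2 was lower in the epidermis, at -2.01 ± 0.42 (adjusted p 0.00105), 4.02-fold. SWEET13 was lower, at -1.66 ± 0.40 (adjusted p 0.00436), 3.16-fold.

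In the axis the same comparison called 3 genes (7.61% of probe sets), 2 higher (3.34%) and 1 lower (4.26%) in the epidermis. SUT1 was higher by 6.16 ± 0.40 (adjusted p 7.96e-11), 71.5-fold, with -0.029 on the third probe set. SBP2 was lower, at -2.60 ± 0.59 (adjusted p 0.00546), 6.07-fold, and this call was lost without axis epidermis replicate 1 (-2.32, adjusted p 0.0584). SWEET24 was called at 2.55 ± 0.71 (adjusted p 0.0230), but 1 of its 4 arrays lay above background. That array, axis epidermis replicate 2, also stood apart in markers listed for the coat. The PRP sum was 32113 in it and 2654 in replicate 1, and the sum of AGL1L and ANR1 was 1018 in it and 85.6 in replicate 1. PRP1 alone had 30477 in replicate 2, above its highest coat array, hourglass replicate 1 with 17806. The part of these genes in the SWEET24 difference was not tested. The SWEET24 value dropped to 1.47 (adjusted p 0.286) without axis epidermis replicate 2, and the adjusted p was 0.109 and 0.104 without axis parenchyma replicate 1 and replicate 2. The axis epidermis arrays were among the 4 with the brightest hybridization controls, at 3.00 and 2.91 times the median array. For the difference between the cotyledon and axis contrasts, limma called 0 of 7 genes (3.35% of probe sets), with 2 at an unadjusted p under 0.05. SUT1 gave -1.48 ± 0.49 (adjusted p 0.109) and SWEET13 gave -1.92 ± 0.70 (adjusted p 0.152).

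Vascular bundle over parenchyma in the cotyledon called 2 genes (10.7% of probe sets), 1 higher (6.65%) and 1 lower (4.03%). SUT1 was higher in the vascular bundle by 1.5 ± 0.35 (adjusted p 0.00337), 2.84-fold, and 1.24 (adjusted p 0.114) without vascular bundle replicate 2. The second SUT1 probe set gave 0.57 (adjusted p 0.794) and the third gave -0.050. SWEET13 was lower there, at -3.14 ± 0.49 (adjusted p 4.17e-05), at least 3.67-fold. SBP2 gave -1.22 ± 0.51 (adjusted p 0.142). In the axis, limma called 0 genes (7.22% of probe sets) and 1 had an unadjusted p under 0.05, SWEET13 at -1.41 ± 0.57 (adjusted p 0.149). For the difference between these contrasts, limma called 0 genes (3.04% of probe sets), with SUT1 at 1.56 ± 0.53 (adjusted p 0.135) and SWEET13 at -1.73 ± 0.76 (adjusted p 0.293) as the 2 genes under an unadjusted p of 0.05.

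**Figure D4:**
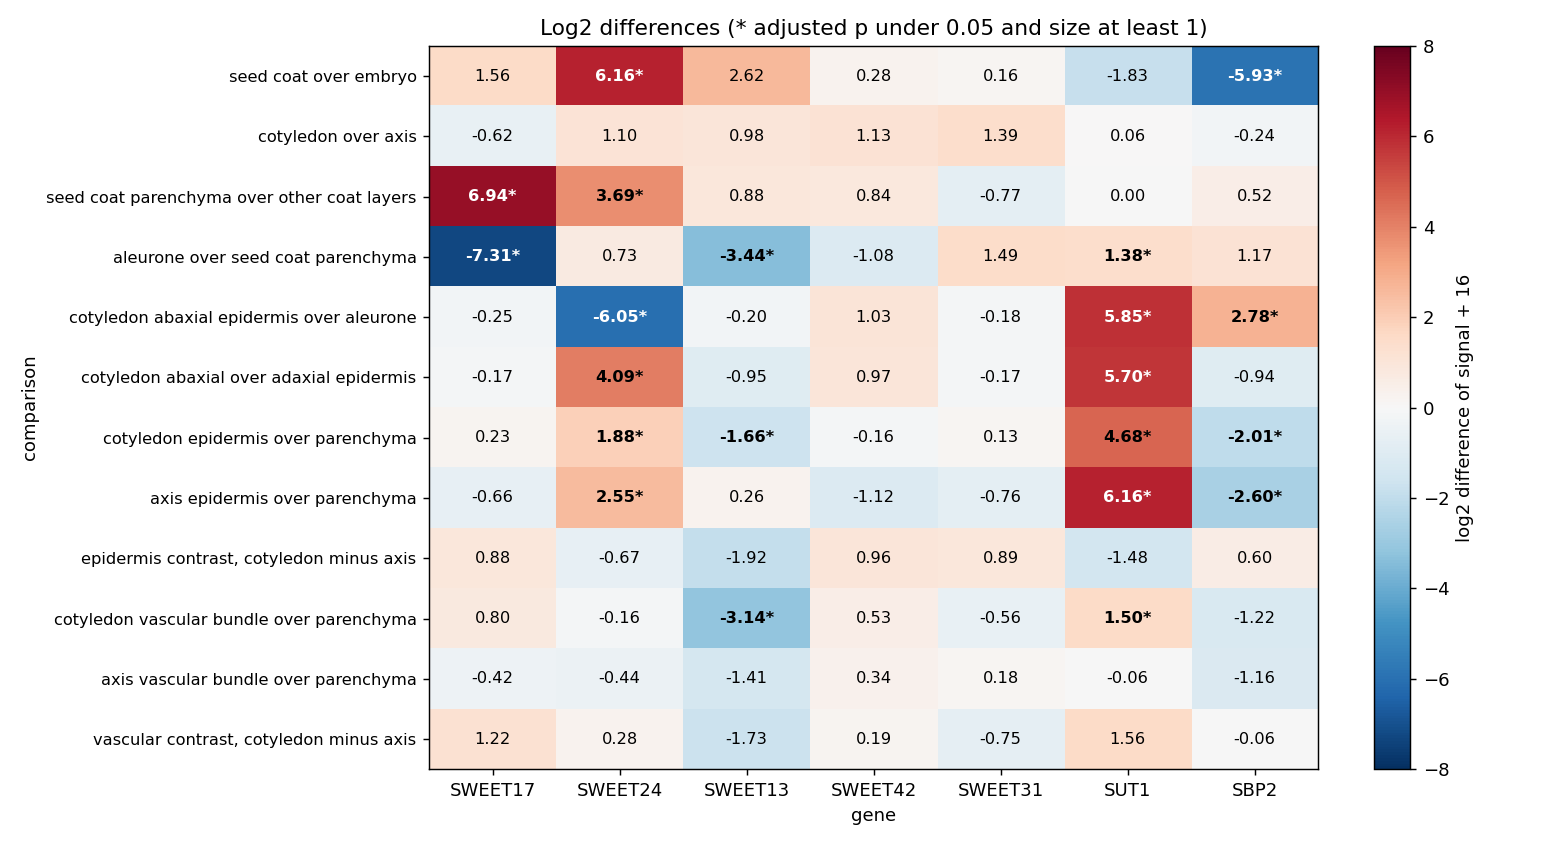
Log2 difference of signal plus 16 for each comparison (rows) and gene (columns), colored from blue, lower, to red, higher in the group named first, with an asterisk on each called difference. SUT1 and SWEET24 carry most of the called differences that involve an epidermis, and SWEET31 and SWEET42 carry none in any row.

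A list of 10 other genes was matched by symbols that point to sugar transport, sugar binding, invertase, galactinol or starch synthesis. SBP65, SBPRP and STP entered it by their letters alone, with no product description to check them. The filter passed 8 of the 10, and 5 differed among the compartments, beside 63.4% of all tested probe sets. STP1 peaked in the aleurone, where SWEET24 also peaked, with 6254 and 11378, against 627 and 945 in the seed coat parenchyma. It was called higher there, by 3.43 ± 0.57 (adjusted p 5.85e-05), and higher in the seed coat than in the embryo, by 1.91 (adjusted p 0.0246). STP1 was lower in the cotyledon abaxial epidermis than in the aleurone, at -5.87 (adjusted p 1.11e-08). The starch synthase gene GBSSIa was lower in the seed coat than in the embryo, at -5.53 ± 0.59 (adjusted p 1.15e-05), like SBP2. Within the coat it was higher in the parenchyma by 3.89 (adjusted p 4.58e-12). Of the list, 2 of 8 genes were called between seed coat and embryo (15.1% of all tested probe sets) and 3 of 8 between seed coat parenchyma and other coat layers (13.8%). The count was also 3 of 8 between the aleurone and seed coat parenchyma (18.3%) and between the cotyledon abaxial epidermis and the aleurone (18.8%). SBPRP, whose product is not checked, was among the 3 in each case. SWEET34 was lower in seed coat parenchyma than in the other layers, at -1.25 (adjusted p 0.0248), and SWEET28 did not pass the filter.

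For each gene the 3 most alike of 887 named genes were taken by Pearson's r of log2 group means over 17 groups, as a description. SWEET24 was most like SSTP-1 (r = 0.983), the seed coat BURP domain gene SCB1 (r = 0.921) and the gibberellin oxidase gene GA2OX6 (r = 0.884). SSTP-1 had 87832 and 42480 in the aleurone and 69936 and 54671 in the seed coat parenchyma. SWEET17 was most like the gibberellin-regulated genes GASA4 (r = 0.949) and GASA29 (r = 0.904) and the lipoxygenase gene VLXC (r = 0.900). All 3 were highest in the seed coat parenchyma, GASA29 with 31688 and 27483. SBP2 was most like PPCK2, a kinase of phosphoenolpyruvate carboxylase (r = 0.956), and the seed maturation genes PM34 (r = 0.931) and PM29 (r = 0.926). SWEET13 was most like the aquaporin gene PIP2-9 (r = 0.827), FRD3a (r = 0.806) and the lipoxygenase gene LOX9 (r = 0.795), and PIP2-9 had 27565 and 27191 in the hourglass layer. The likeness was lower for SUT1, with BZIP98 (r = 0.758), CYP77A3 (r = 0.736) and GSTIR (r = 0.723), for SWEET31, with CDPK-BETA (r = 0.768), GASA27 (r = 0.758) and PIP2-6 (r = 0.753), and for SWEET42, with LHY (r = 0.711), PIP2-8 (r = 0.664) and L1 (r = 0.649). The SUT1 pattern was not shared in full by its most alike gene, since BZIP98 was highest in both faces of the cotyledon epidermis, at 5665 and 4561 on the abaxial and 3937 and 2583 on the adaxial side.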

How the data were processed

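The authors deposited linear intensity per probe set, made with GCOS 1.3 per the submitters' processing notes. Its algorithm is not given in the sources used here; each array was on a common scale. Without the lowest and highest 2% of probe sets, the mean signal was near 500.1 on every array. Signals were used as deposited, as log2 of signal plus 16. A soybean probe set was tested if it exceeded the array's background on at least 2 arrays. For seed coat, cotyledon and axis, limma was fitted to the 16 compartment means. A single limma model of the 17 groups, without a replicate block, gave every other comparison, and both models used eBayes. The number of arrays limits the precision. The labels and gene table gave groups and names, and no genome position was used. The test steps were tested on simulated data. Alternatives covered the pseudocount, scaling, filter, array weights, the samples fitted, a replicate block, other probe sets of a gene and each array left out. The genes named are the 7 members, the listed sugar genes and markers, and the 3 genes most alike in pattern. The members and lists were chosen with earlier results of these data known. Tests ran in limma 3.58.1 under R 4.3.3 with data.table version 1.17.8. Figures were drawn by matplotlib 3.10.9 from pandas 2.3.3 under Python 3.11.15.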

Additional observations from a re-analysis of the deposited data

How the results depend on the processing

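Of the 21 differences called for the 7 genes in comparisons between groups, 16 kept direction and call under every alternative run on the same probe set. The other 5 lost the call under at least 1, and the losses with single arrays are given with the results. With array weights, axis epidermis over parenchyma lost SWEET24 (2.55, adjusted p 0.135). Fits of only the arrays compared lost it too (adjusted p 0.238), and lost SUT1 for aleurone over seed coat parenchyma (1.38, adjusted p 0.0569). No member reversed on the probe set read, while 3 SUT1 differences reversed on the third probe set, at -0.49, -0.029 and -0.050. No pairing by replicate number was seen: over 136 pairs of groups, deviations of same-numbered arrays correlated at -0.0874 to 0.153 (median 0.0165, 4 over 0.1). These correlations cannot tell whether compartments share seeds. The fit with a replicate block called 1030 probe sets and 1 member between cotyledon and axis, against 426 and 0 in the main fit. For seed coat, cotyledon and axis that fit used single arrays, correlated within a compartment, instead of compartment means. The effect of the block alone thus cannot be read from it. Quantile normalization also called 1 member between cotyledon and axis. Without the arrays with bright controls, 207 probe sets were called there, and the axis epidermis comparisons could not be run. Fits of only the arrays compared called 572 probe sets between the cotyledon epidermis faces (1002 in the full fit), 733 in the axis epidermis (2164) and 790 in the axis vascular bundle (2053). Array weights called 1020, 1294 and, for the epidermis contrast, 532 (952 in the full fit). A pseudocount of 64 called 1 member in that contrast. Leaving out single arrays or, for cotyledon over axis, also whole compartments gave 146 to 562 probe sets there (the lowest without the cotyledon abaxial parenchyma compartment), 2210 to 3988 for seed coat parenchyma over other coat layers, 3451 to 4322 for the aleurone, 544 to 947 for the cotyledon epidermis faces, 1213 to 2427 for the axis epidermis, 591 to 1341 for the epidermis contrast, 1925 to 2695 for the cotyledon vascular bundle, 1239 to 2531 for the axis vascular bundle and 511 to 1262 for the vascular contrast, and 0 to 2 members for cotyledon over axis and 1 to 2 for the cotyledon vascular bundle. The cause was not tested.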
